A study of Mus musculus with 5 samples.

Results

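The Serpina3 cluster on mouse chromosome 12 was examined in single cells from the heart. It was represented by the 6 genes Serpina3f, Serpina3g, Serpina3h, Serpina3i, Serpina3m and Serpina3n, chosen by symbol because their values in these libraries were already known. Of the 6 genes, 5 had a row among the 31053 genes of the count matrices, and Serpina3h had none. The control group consisted of 2 libraries (replicates 1 and 2) from 4 Ctla4+/+Pdcd1-/- mice, and the disease group of 3 libraries (replicates 3, 4 and 5) from 10 Ctla4+/-Pdcd1-/- mice. All mice lacked Pdcd1, so the labelled genotypes differed in whether both Ctla4 copies were intact; mice with a single intact copy serve to model myocarditis caused by immune checkpoint inhibitors. The genotype labels of replicates 2, 4 and 5 carry another number after Pdcd, and the series' design text was followed here. Hearts were digested and pooled, live nucleated cells (DRAQ5+DAPI-) were sorted, and RNA was counted with the 5′ chemistry of 10x Genomics. The ages, sexes and days of collection of the mice, and which mice went into which library, are not given in the sources used here, so the spread between libraries may be in part technical.

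Serpins are protease inhibitors that act as bait: a protease cuts the exposed reactive centre loop near the carboxy terminus, the serpin springs shut, and the enzyme is trapped. Humans have a single SERPINA3 gene, alpha-1-antichymotrypsin, whereas the mouse has a row of copies that differ most in this loop. Serpina3n is a secreted acute-phase protein that inhibits granzyme B, among other proteases. Serpina3g, also called Spi2A, works inside cells against lysosomal cathepsins and is induced in activated T cells and by interferon-gamma. The proteins made from Serpina3f, Serpina3i and Serpina3m are less well studied.

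All members lie on the plus strand of chromosome 12 (GRCm38, GENCODE vM21). Serpina3f occupies chr12:104214544-104221129, Serpina3g chr12:104236245-104241939, Serpina3h chr12:104247905-104253669, Serpina3i chr12:104263122-104269372, Serpina3m chr12:104338486-104394257 and Serpina3n chr12:104406729-104414329. Serpina3h is annotated as a transcribed unprocessed pseudogene and the other members as protein coding. The annotated span of Serpina3m overlaps that of Serpina3k. Coding sequences of the 5 protein-coding members were 81.9% to 91.3% identical in pairs, with Serpina3f and Serpina3i the closest pair. The coding stretch from the hinge of the reactive centre loop to the conserved residues behind it is shown here because this is where the copies part. Capitals mark bases that differ from Serpina3n, in exons as annotated for 1 transcript per gene.
Serpina3n: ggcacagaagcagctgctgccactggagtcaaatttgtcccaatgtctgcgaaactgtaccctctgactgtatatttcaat
Serpina3f: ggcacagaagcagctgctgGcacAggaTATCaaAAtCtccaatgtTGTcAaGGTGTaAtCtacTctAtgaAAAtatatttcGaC
Serpina3i: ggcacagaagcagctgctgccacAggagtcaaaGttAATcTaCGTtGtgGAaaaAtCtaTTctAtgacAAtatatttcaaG
Serpina3g: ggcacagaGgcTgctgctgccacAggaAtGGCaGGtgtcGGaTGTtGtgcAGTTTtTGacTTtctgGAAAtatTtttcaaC
Serpina3m: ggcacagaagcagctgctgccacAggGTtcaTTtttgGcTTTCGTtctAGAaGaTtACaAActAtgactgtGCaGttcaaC
The stretch holds 84 bases in Serpina3f and 81 bases in the others. In it, the 4 other genes were 63.0% to 75.3% identical to Serpina3n, against 86.5% to 89.6% in the coding sequence before it. Serpina3g was the most distant from Serpina3n in the loop, at 63.0%. Its annotated coding sequence holds 248 codons, against 408 to 445 in the others. The loop stretch starts at its coding base 493, against 1069 to 1099 in the others. Its 89.6% before the loop thus covers a shorter stretch and cannot be ranked against theirs. Copies this alike can also share reads. Of the 90-base windows in the first 500 bases of the transcript, where a 5′ library places its reads, 18.7% of those of Serpina3g were identical to a window of Serpina3f, Serpina3h or Serpina3i. In the same stretch no window of Serpina3n, Serpina3f or Serpina3m was shared with another member, and 1.7% were for Serpina3i. Values of Serpina3g may therefore hold, or lack, reads of its close copies, while those of Serpina3n are little affected.

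Upstream sequence is shown for the 4 members in the promoter table (RefSeq, GRCm38.p6) because Serpina3f and Serpina3g moved together across libraries and Serpina3n did not move with them. Each line holds the 250 bases before the start site, 5′ to 3′, and capitals mark every match to the motifs searched.
Serpina3f (chr12:104214294-104214543): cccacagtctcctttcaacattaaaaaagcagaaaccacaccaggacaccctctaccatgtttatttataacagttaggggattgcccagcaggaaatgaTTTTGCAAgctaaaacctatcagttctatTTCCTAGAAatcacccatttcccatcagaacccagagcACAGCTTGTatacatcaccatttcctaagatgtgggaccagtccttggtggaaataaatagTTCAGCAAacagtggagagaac
Serpina3g (chr12:104235897-104236146): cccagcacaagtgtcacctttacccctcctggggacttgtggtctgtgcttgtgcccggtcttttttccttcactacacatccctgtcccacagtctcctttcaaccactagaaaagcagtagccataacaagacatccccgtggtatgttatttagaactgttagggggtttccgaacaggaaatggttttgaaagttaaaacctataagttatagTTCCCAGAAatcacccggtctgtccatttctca
Serpina3i (chr12:104262872-104263121): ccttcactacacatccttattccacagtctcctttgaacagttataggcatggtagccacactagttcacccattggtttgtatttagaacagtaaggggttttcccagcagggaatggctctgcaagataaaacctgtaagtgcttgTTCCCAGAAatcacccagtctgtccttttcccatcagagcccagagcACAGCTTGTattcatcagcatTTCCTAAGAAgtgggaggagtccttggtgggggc
Serpina3n (chr12:104406458-104406707): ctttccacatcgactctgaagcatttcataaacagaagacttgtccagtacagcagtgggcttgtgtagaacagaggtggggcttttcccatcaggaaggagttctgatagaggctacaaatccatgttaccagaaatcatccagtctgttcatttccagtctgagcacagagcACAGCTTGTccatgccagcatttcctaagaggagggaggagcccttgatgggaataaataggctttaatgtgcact
The motifs were searched on both strands in the window from 250 bases before to 50 after the start. They were the STAT dimer site TTCNNNGAA and a spaced STAT site with 4 free bases between TTC and GAA. The interferon-stimulated element had 2 free bases between GAAA and GAAA. The others were the glucocorticoid receptor core ACANNNTGT and the C/EBP motif TTGCNNAA. The STAT dimer site was present in Serpina3f (TTCCTAGAA, 121 to 113 bases before the start shown and 210 to 202 before the other start in the table), Serpina3g (TTCCCAGAA, 33 to 25 bases before the RefSeq start, and 131 to 123 before the GENCODE start given above, which lies beyond the window) and Serpina3i (TTCCCAGAA, 102 to 94 bases before). Of 32851 mouse promoter windows of this length, 8.3% held this motif. Opposite it, Serpina3n has ttaccagaa, which differs from the match in Serpina3g and Serpina3i at 1 letter and from that in Serpina3f at 2. The glucocorticoid receptor core, found in 6.85% of windows, stood as ACAGCTTGT in Serpina3f, Serpina3i and Serpina3n and was not found in Serpina3g. Serpina3f alone of the 4 held the C/EBP motif, found in 10.8% of windows, and Serpina3i alone the spaced STAT site, found in 6.95%. The interferon-stimulated element, found in 3.44% of windows, was in none of them. A match describes the sequence only and is no evidence that a factor binds there.

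The libraries held between 24991704 and 55053988 UMIs (unique molecular identifiers, each counting 1 RNA molecule). Of 47319 barcodes, 37054 were kept after filters on depth, mitochondrial RNA and doublets, and 30952 of these could be assigned to a cell class by UMIs of fixed marker genes. The 4 classes examined were fibroblasts (1373 to 3189 barcodes per library), endothelial cells (1611 to 2661), macrophages (483 to 1505) and T cells (84 to 2068). Levels are given as CPM, the gene's UMIs scaled to a common total of UMIs of all genes, over the summed barcodes of 1 class and library. Pairs of libraries shared 49 to 97 barcode sequences, at most 1.48% of the smaller one. The targeted genes do not check the labels, since which part of each gene was deleted is not given. In T cell barcodes, Pdcd1 was counted at 601 and 68.7 CPM in the control libraries and 269, 1080 and 839 CPM in the disease libraries. Ctla4 was at 443 and 76.7 CPM in the control libraries and 139, 653 and 552 CPM in the disease libraries, so for both genes replicates 1, 4 and 5 were high and replicates 2 and 3 low.

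Serpina3n was counted mostly in fibroblasts in these hearts, and its level there was higher in every disease library than in either control library. Fibroblast barcodes held 9102 of its UMIs, 98.3% of those in assigned barcodes. The few Schwann cell barcodes, 15 to 31 per library, had it at 20.9 and 52.4 CPM in the control libraries and 14.2, 147 and 0 CPM in the disease libraries, on 11 UMIs in all. Its level in fibroblasts was 95.01 and 86.6 CPM in control replicates 1 and 2 and 172, 172 and 169 CPM in disease replicates 3, 4 and 5. The means were 90.8 ± 5.94 (SD, n = 2) and 171 ± 1.48 CPM (SD, n = 3), and the 3 disease libraries were nearly level with each other. The fitted log2 fold change was 0.87 (SE 0.11). Because the gene was chosen with this difference known, it is a description and no test is given. Of the 13518 genes tested in fibroblasts, 0.392% passed the adjusted threshold as higher in disease, and 25.7% had all disease libraries above all control libraries.

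The share of fibroblast barcodes with a Serpina3n UMI was also higher in every disease library. After each barcode was thinned to 1000 UMIs, it was 7.10% and 6.41% for controls, against 13.2%, 11.4% and 11.8% in disease. Without thinning the shares were 28.7% and 24.4%, against 40.2%, 41.3% and 36.1%. T cells, which served as the class that should lack the gene, had a thinned share of 0% to 0.217%, where the 2 libraries at 0, with 84 and 110 barcodes, allow a thinned share of up to 3.57% and 2.73%. Thinning left out 23 control and 50 disease fibroblast barcodes that were shallower. The gene was unevenly spread within the class: the tenth of fibroblast barcodes with most Serpina3n UMIs held 56.7% to 71.8% of them, and the highest single barcode held 55.

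Outside fibroblasts Serpina3n was close to the level of other fibroblast RNA. In endothelial barcodes it was at 1.34 and 1.09 CPM in the control libraries and 1.90, 3.63 and 2.91 CPM in the disease libraries. All disease libraries lay above all control libraries there too, as they did for 25.3% of the 12338 genes tested in that class. Macrophages had 0.59 to 1.98 CPM and T cells 0 to 1.12 CPM. As a share of the level in fibroblasts of the same library, Serpina3n stood at 0% to 2.11% over these 3 classes, beside 0.711% to 1.85% for the collagen gene Col3a1 and 0% to 1.33% for Col1a2. Whether these UMIs come from free fibroblast RNA was not tested.

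Fibroblasts were split by UMIs of other genes to see where Serpina3n lay among them; these splits were chosen after the data were seen. Pi16 is a marker of adventitial fibroblasts. Here 1023 to 2487 fibroblast barcodes per library held a Pi16 UMI and 350 to 702 did not. The split therefore does not set an adventitial subset apart. The groups differed in the same direction on both sides. With a Pi16 UMI, Serpina3n was at 93.8 and 88.6 CPM in the control libraries and 178, 176 and 173 CPM in the disease libraries. Without one it was at 101 and 77.6 CPM, against 138, 153 and 141 CPM, so the groups did not overlap on either side. Over all fibroblast barcodes, 25.7% of genes had all disease libraries above all control libraries. Barcodes with a Pi16 UMI were deeper, with medians of 5795.5 to 6813 UMIs against 4146 to 4569.5. Postn, which encodes periostin and marks activated fibroblasts, gave another picture. Among barcodes without a Postn UMI the groups stayed apart, at 88.9 and 87.3 CPM against 181, 159 and 131 CPM. Among barcodes with one, Serpina3n was at 134 and 80.3 CPM in the control libraries and 130, 221 and 261 CPM in the disease libraries, and control replicate 1 lay above disease replicate 3. Barcodes with a Postn UMI were deeper, with medians of 6931 to 8637 UMIs against 5298 to 6084.

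**Figure D1:**
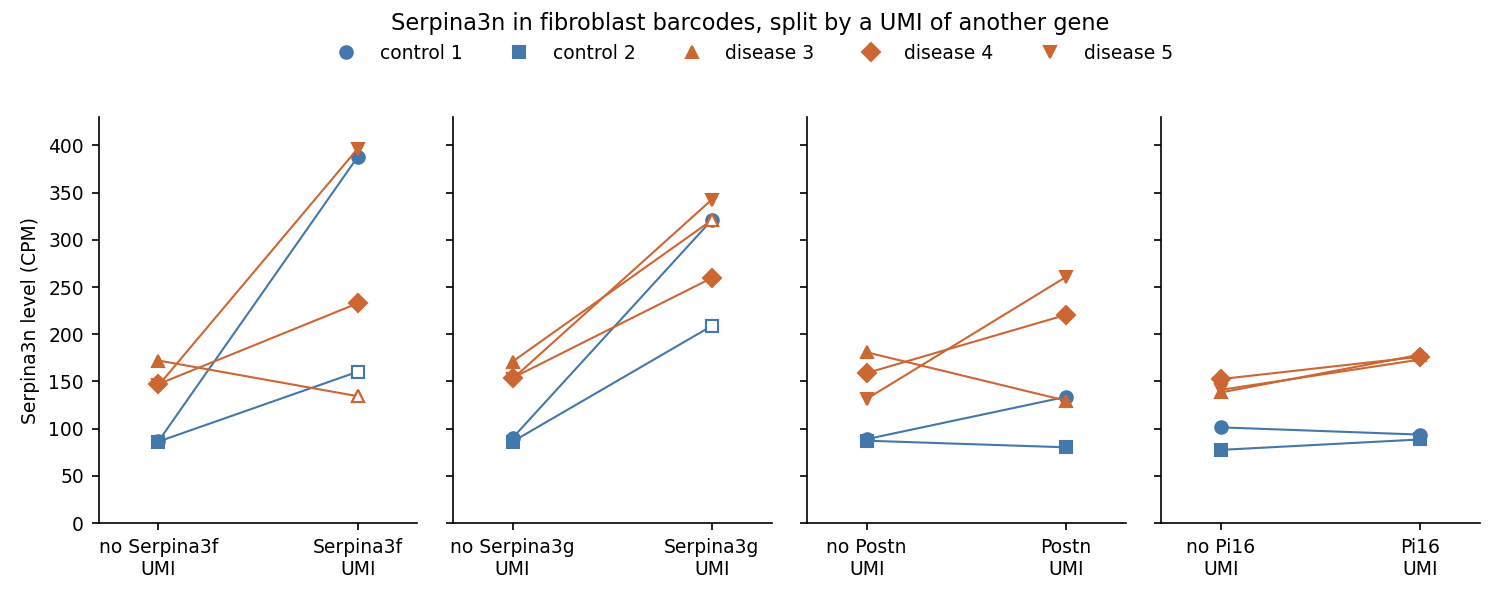
Serpina3n level (CPM) in fibroblast barcodes without and with a UMI of Serpina3f, Serpina3g, Postn or Pi16, 1 line per library, with open symbols where fewer than 10 barcodes had the UMI. In control replicate 1 and disease replicates 4 and 5 the level is higher where Serpina3f or Serpina3g was counted, and the disease lines lie above the control lines on both sides of the Pi16 split.

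Serpina3f and Serpina3g did not follow the genotype. In all 4 classes, over all barcodes of the class, disease replicates 4 and 5 were the highest pair for both genes, control replicate 1 lay above disease replicate 3, and the groups overlapped. Serpina3f in fibroblasts was at 8.97 and 1.03 CPM in the control libraries and 1.87, 171 and 49.1 CPM in the disease libraries. In endothelial cells it was at 26.0 and 1.69 CPM, against 1.49, 170 and 42.2 CPM. Macrophages had 22.7 and 0.397 CPM in the control libraries and 4.43, 140 and 58.5 CPM in the disease libraries. Disease replicate 3 was thus closer to control replicate 2 than to the other disease libraries in these 3 classes. T cells had 14.2 and 5.29 CPM, against 3.93, 18.0 and 17.2 CPM, a narrower range. The log2 fold change of Serpina3f was 3.70 (SE 1.78) in fibroblasts, 2.27 (SE 1.72) in endothelial cells, 2.53 (SE 1.45) in macrophages and 0.32 (SE 0.56) in T cells.

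Serpina3g was at 4.41 and 0.345 CPM in fibroblasts of the control libraries and 0.936, 48.8 and 19.6 CPM in those of the disease libraries. Endothelial cells had 38.5 and 4.72 CPM, against 5.29, 302 and 71.5 CPM. In macrophages the gene was at 65.1 and 3.97 CPM in the control libraries and 18.3, 298 and 111 CPM in the disease libraries. T cells had 124 and 5.29 CPM, against 64.8, 146 and 147 CPM, where the low value of control replicate 2 rests on 2 UMIs in 84 barcodes. Its log2 fold change was 3.02 (SE 1.54) in fibroblasts, 2.46 (SE 1.61) in endothelial cells, 2.12 (SE 1.35) in macrophages and 0.76 (SE 0.81) in T cells. In T cells it was -0.02 when control replicate 2 was left out, and 4.45 when control replicate 1 was.

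Fibroblasts had less Serpina3g than the other 3 classes in each of the 5 libraries. T cells had the most in replicates 1, 2, 3 and 5, whereas endothelial cells and macrophages were highest in replicate 4. Averaged over libraries, Serpina3g stood at 99.4 ± 119 CPM in macrophages, 97.4 ± 61.4 in T cells, 84.4 ± 125 in endothelial cells and 14.8 ± 20.5 in fibroblasts (SD, n = 5). This SD is the spread between libraries. It does not measure the difference between classes, which come from the same libraries. Serpina3f had no class that was lowest in every library. Its means were 48.3 ± 70.2 CPM in endothelial cells, 46.4 ± 72.3 in fibroblasts, 45.2 ± 57.8 in macrophages and 11.7 ± 6.67 in T cells. After thinning, a Serpina3g UMI was seen in 9.98% and 1.19% of control T cell barcodes, against 5.45%, 12.3% and 11.9% in disease. The corresponding shares in fibroblasts were 0.346% and 0%, against 0%, 3.09% and 1.12%. At this thinned depth 0 of 1357 and 0 of 1862 barcodes allow a share with a UMI of up to 0.221% and 0.161%. Without thinning the shares in these 2 libraries were 0.146% and 0.479%, on 3 and 10 UMIs.

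Markers of immune cells had UMIs in fibroblast and endothelial barcodes. In fibroblast barcodes the summed level of the 8 T cell markers was 20.8 and 2.53 CPM in the control libraries and 3.09, 91.5 and 31.2 CPM in the disease libraries, and that of the 8 macrophage markers 161 and 62.7 CPM, against 102, 201 and 92.9 CPM. In endothelial barcodes the T cell markers summed to 21.99 and 1.69 CPM, against 4.07, 77.8 and 12.1 CPM, and the macrophage markers to 205 and 64.0 CPM, against 122, 277 and 155 CPM. The T cell markers in fibroblasts had the library order of Serpina3f and Serpina3g there, while the other 3 sums were lower in disease replicate 5 than in control replicate 1. All 8 macrophage markers had UMIs in both classes in every library, and 5 to 8 of the T cell markers did; those at 0 were Trac, Trbc1 and Cd5 in fibroblasts of replicate 2, Cd5 in fibroblasts of replicate 3 and Trbc1 in endothelial cells of replicate 2. As a share of the level in T cell barcodes of the same library, the T cell markers in fibroblasts came to 0.057% to 1.12%, while Serpina3g came to 1.44% to 33.4% and Serpina3f to 19.5% to 949%. Set against macrophages, the macrophage markers in fibroblasts came to 0.337% to 0.8%, Serpina3g to 5.12% to 17.6% and Serpina3f to 39.6% to 260%. Both genes were thus above the share of the marker lists in every library. In barcodes with no UMI of another class's markers, Serpina3f in fibroblasts was at 4.50 and 1.55 CPM in the control libraries and 2.38, 144 and 38.4 CPM in the disease libraries. In macrophages with no such UMI, Serpina3g was at 7.98 and 5.78 CPM, against 0, 106 and 14.1 CPM, on 0 to 84 UMIs per library, below its level in all macrophages in every library but control replicate 2. Serpina3f in these macrophages was at 3.99 and 1.93 CPM, against 2.89, 75.9 and 32.3 CPM. Under this gate replicates 4 and 5 were no longer the highest pair in endothelial cells or T cells for either gene. In endothelial cells Serpina3f was at 23.6 CPM in control replicate 1, on 6 UMIs, and 15.9 CPM in disease replicate 5, and Serpina3g at 62.9 and 51.3 CPM. In T cells Serpina3f was at 18.7 CPM, on 2 UMIs, and 13.7 CPM in the same libraries, and Serpina3g was highest in control replicate 1, at 149.8 CPM on 16 UMIs against 139.4 CPM in each of disease replicates 4 and 5.

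The mix of Serpina3f and Serpina3g differed by class. Serpina3f made up 66.7% to 77.8% of the UMIs of both genes in fibroblasts, 22.0% to 40.3% in endothelial cells and 9.09% to 34.4% in macrophages. In T cells it was 5.71% to 11.0% in 4 libraries, and in control replicate 2 it was 50.0% on 4 UMIs. In disease replicate 4, which held most UMIs, the share was 77.8% (95% Wilson interval 76.2% to 79.3%) in fibroblasts, 36.0% (34.0% to 38.1%) in endothelial cells, 31.9% (30.7% to 33.2%) in macrophages and 11.0% (9.54% to 12.6%) in T cells. Fibroblasts were the highest class in every library, and the order of the others was endothelial, macrophage and T cell in the 4 libraries other than control replicate 2. The intervals cover counting error only. Levels of the 2 genes are not compared with each other, since reads may be split between the copies in a way that differs from gene to gene. Whether that split differs between classes was not tested.

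**Figure D2:**
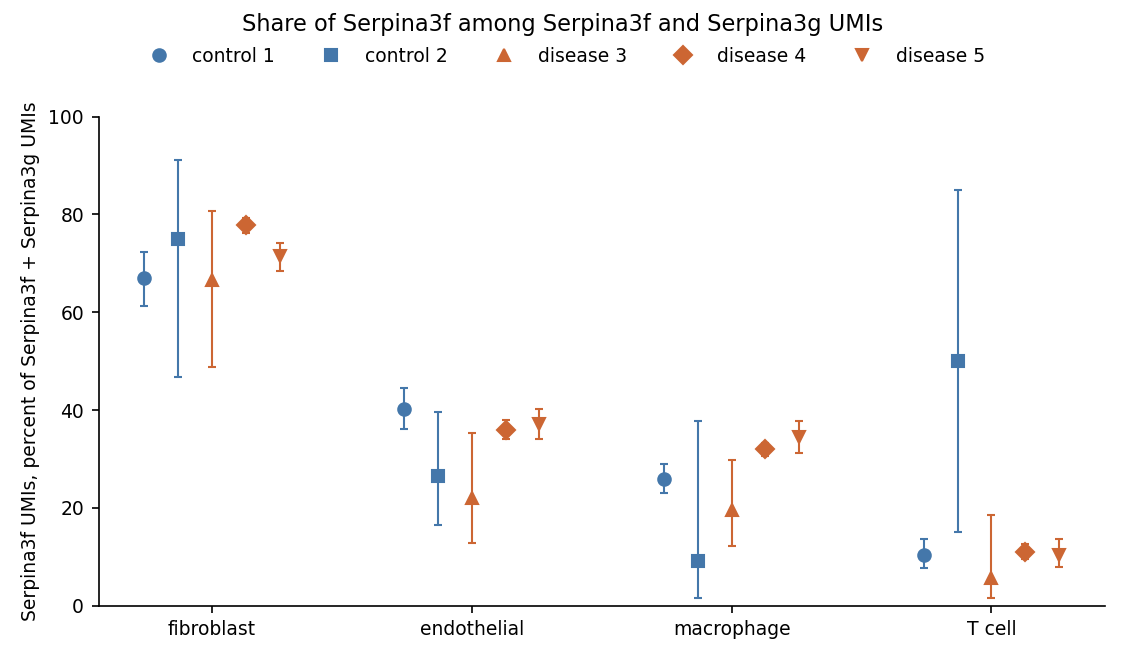
Serpina3f UMIs as a percent of the UMIs of Serpina3f and Serpina3g together, by class and library, with 95% Wilson intervals that cover counting error only. Fibroblasts lie at 66.7% to 77.8% and T cells at 5.71% to 11.0% except in control replicate 2, which had 4 UMIs.

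In fibroblasts of 3 libraries the members were higher in barcodes that also held Serpina3f, a comparison chosen after the data were seen. In fibroblasts with a Serpina3f UMI, Serpina3g was at 82.1 CPM in control replicate 1 and 132 and 159 CPM in disease replicates 4 and 5, against 2.22, 15.1 and 5.09 CPM in those without. Serpina3n in the same barcodes was at 388, 233 and 396 CPM, against 86.7, 147 and 146 CPM. Serpina3i was at 6.99, 20.2 and 10.7 CPM, against 0.641, 1.44 and 0.716 CPM. Barcodes with a Serpina3f UMI were deeper in these libraries, with medians of 8298, 8197 and 9675 UMIs against 6196, 5193 and 5845. The other 2 libraries had 6 and 8 such barcodes, and in disease replicate 3 Serpina3n was lower in them (134 CPM, on 7 UMIs) than in the rest (172 CPM). In endothelial barcodes with a Serpina3f UMI, Serpina3n was at 0 in every library but replicate 4.

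Cxcl9, which encodes an interferon-gamma-induced chemokine, was used to split barcodes of 3 classes. Macrophages with a Cxcl9 UMI had Serpina3g at 239 and 75.6 CPM in the control libraries and 177, 411 and 263 CPM in the disease libraries. Those without had 14.9 and 1.64 CPM, against 0.983, 36.6 and 9.88 CPM. All 5 libraries were thus higher on the Cxcl9 side, where control replicate 2 and disease replicate 3 had 11 and 30 barcodes. With a Cxcl9 UMI the macrophages of control replicate 1 and disease replicate 4 had medians of 11981 and 10015 UMIs, against 6274 and 5064 without. In endothelial cells Serpina3g was at 71.5 and 8.01 CPM in the control libraries and 12.2, 566 and 161 CPM in the disease libraries with a Cxcl9 UMI. Without one it was at 13.8 and 3.19 CPM, against 2.17, 41.9 and 14.3 CPM. Replicate 4 was the highest on each side in both classes. Fibroblasts with a Cxcl9 UMI had Serpina3g at 17.3 and 0 CPM, against 6.43, 79.7 and 105 CPM, and those without at 3.97 and 0.347 CPM, against 0.855, 41.9 and 9.66 CPM. The Cxcl9 side was thus the higher in 4 of 5 libraries, and in control replicate 2 it held 9 barcodes and no Serpina3g UMI, while in disease replicate 3 it rested on 1 UMI. Serpina3n in fibroblasts with a Cxcl9 UMI was at 215 and 46.3 CPM, against 109, 221 and 261 CPM. Without one it was at 90.9 and 86.9 CPM, against 173, 161 and 159 CPM. The Cxcl9 side was higher in replicates 1, 4 and 5 and lower in replicates 2 and 3, which had 9 and 19 such barcodes. With a Cxcl9 UMI, control replicate 1 lay above disease replicate 3.

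Among T cells, barcodes with Cd8a or Cd8b1 and no Cd4, the killer lineage, had Serpina3g at 133 and 4.88 CPM in the control libraries and 76.1, 158 and 157 CPM in the disease libraries. Barcodes with Cd4 and neither CD8 gene, the helper lineage, had 68.8 and 13.8 CPM, against 36.7, 59.8 and 56.5 CPM. The CD8 value was the higher in 4 of 5 libraries, and in control replicate 2 each side rested on 1 UMI. The helper side held 19 to 126 barcodes per library.

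Serpina3i and Serpina3m were close to the floor of the measurement. Serpina3i had 139 UMIs in fibroblasts, 83.2% of those in assigned barcodes, with 22 in endothelial cells, 6 in macrophages and none in T cells. Its level in fibroblasts was 0.816 and 0.689 CPM in the control libraries and 0.562, 6.86 and 1.66 CPM in the disease libraries, with a log2 fold change of 1.93 (SE 1.07). Disease replicate 3 was the lowest and disease replicate 4 the highest, so the groups overlapped, and 87 of the 139 UMIs came from replicate 4. The absence of UMIs in T cells allows a level of up to 0.307 CPM in replicate 4, the deepest, and up to 7.93 CPM in replicate 2. Serpina3m had 5 UMIs in all kept barcodes, of which 4 were in fibroblasts, and no pattern can be read from them.

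B cells were not among the classes by which the genes were chosen and so allow a test. Serpina3g was at 53.1 and 13.1 CPM in B cells of the control libraries and 7.69, 38.2 and 27.1 CPM in those of the disease libraries. The groups overlapped, and no difference was detected by edgeR's quasi-likelihood test (log2 fold change -0.06, SE 0.74, adjusted p = 0.98). With 1 library left out it ranged from -0.95 without control replicate 2 to 1.11 without control replicate 1, and the adjusted p over the 7 alternatives was 0.5 to 0.971. Of the 4707 genes tested in B cells, 9.03% passed. Serpina3f did not pass the filter there, with no UMI in the control libraries and 1, 48 and 5 UMIs in disease. Of the 48 UMIs in replicate 4, 41 were in a single barcode.

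For each member with enough UMIs, the genes of most similar level over the 20 sums of 4 classes in 5 libraries were listed, by Pearson's r of log2(CPM + 1) among about 8409 genes; the points share libraries and depth, so this is a description. Among the 5 genes most like Serpina3g were Ifi47 (r = 0.88), Zbp1, B2m and Psme2. Serpina3f was most like Gbp6 (r = 0.83), Igtp, Psmb2, Gbp10 and Serpina3g. Serpina3n was most like Myoc (r = 0.99), Kirrel, Sod3, Vegfd and Tmem45a, a ranking that separates fibroblasts from other classes. Over the 5 fibroblast sums alone it was most like Mtpap, Ak1, Pdlim2, Tomm40l and Pgf. Serpina3i was most like Mrps18b (r = 0.78), Scfd1, Ms4a4d, Ddx56 and Ganab.

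Signals known to raise Serpina3n include cytokines of the interleukin-6 family, which act through the gp130 receptor chain and STAT3, interleukin-1, and glucocorticoids. Of 13 genes listed for the gp130 and interleukin-1 route, 12 were tested in fibroblasts, 5 fell and none rose in disease by edgeR's quasi-likelihood test. Their median log2 fold change was -0.61 beside -0.01 over all genes, of which 12.6% fell. Cebpd, an acute-phase transcription factor, was at 824 and 659 CPM in the control libraries and 66.3, 36.4 and 64.0 CPM in the disease libraries, with a log2 fold change of -3.79 (SE 0.30, adjusted p = 0.0013). Socs3, the feedback inhibitor of gp130 signalling, was at 235 and 221 CPM, against 107, 87.8 and 109 CPM (log2 fold change -1.22, SE 0.14, adjusted p = 0.0040). The groups were far apart for both, and these 2 calls held under all 13 alternatives that gave an adjusted p. Those include a fit that only summed the members. They leave out the comparison with genes of like GC content, which gave no adjusted p. The receptors Il6ra and Il1r1 fell by 0.67 each on the log2 scale, and Nfkbia, an inhibitor of NF-kappa B, fell by 1.96. These 3 calls were lost without replicate 1, 2 or 5, where the highest adjusted p was 0.26 for Il6ra, 0.10 for Il1r1 and 0.087 for Nfkbia. The Il6ra call was also lost without replicate 3 and in barcodes with no UMI of another class's markers, and relative to genes of like GC content its log2 fold change was 0.07, while that of Il1r1 was -0.32 and that of Socs3 -0.55. Osmr, the oncostatin M receptor, did not pass the test (log2 fold change 0.36, SE 0.19), nor did Il6st, the gp130 chain itself (-0.21, SE 0.12).

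Of 10 other acute-phase genes tested in fibroblasts, none passed the threshold in edgeR, and 1 had an unadjusted p under 0.05, as 28.1% of all genes tested did. The log2 fold change was above 0 for 8 of the 10, with a median of 0.38 beside -0.01 over all genes. Timp1, a metalloprotease inhibitor, was at 108 and 60.2 CPM in the control libraries and 88.8, 512 and 343 CPM in the disease libraries, the library order of Serpina3f. None of the 10 glucocorticoid genes passed in fibroblasts, and 3 had an unadjusted p under 0.05, a share near that 28.1%. Tsc22d3, a classical glucocorticoid target, stood at 315 and 319 CPM in the control libraries and 606, 415 and 564 CPM in the disease libraries, with a log2 fold change of 0.69 (SE 0.19, adjusted p = 0.078 in edgeR). The receptor gene Nr3c1 lay the other way, at 166 and 198 CPM, against 142, 132 and 120 CPM (log2 fold change -0.52, SE 0.13, adjusted p = 0.055 in edgeR). Both differences missed the threshold. The groups did not overlap for Tsc22d3, and 25.7% of all genes tested in fibroblasts had all disease libraries above all control libraries. In endothelial cells 2 of the 10 rose in edgeR, against 0.34% of all genes tested in that class. They were Tsc22d3 (log2 fold change 0.98, SE 0.11, adjusted p = 0.0031) and the clock gene Per1 (1.15, SE 0.11, adjusted p = 0.0017).

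Of 12 genes of the interferon-gamma route tested in fibroblasts, 2 fell and none rose in edgeR, a share near the 12.6% of all genes that fell. The log2 fold change was above 0 for 7 of the 12, with a median of 0.65 beside -0.01 over all genes. The receptor chain Ifngr2 was at 41.3 and 38.4 CPM in the control libraries and 9.18, 10.6 and 12.1 CPM in the disease libraries, with a log2 fold change of -1.95 (SE 0.15, adjusted p = 0.0011), and this call held under all 13 alternatives. The kinase Jak1 fell by 0.83 (SE 0.18, adjusted p = 0.035), a call lost without replicate 1, 2 or 5, with an adjusted p of up to 0.18, and its log2 fold change relative to genes of like GC content was -0.40. Of the targets, Igtp and Cxcl9 had wide errors and did not pass the test, with a log2 fold change of 1.71 (SE 1.00) for Igtp and 3.50 (SE 1.33) for Cxcl9. Igtp was at 98.3 and 50.1 CPM, against 44.3, 525 and 190 CPM, and Cxcl9 at 12.9 and 1.26 CPM, against 12.2, 122 and 133 CPM. Replicates 4 and 5 were the highest for both, and disease replicate 3 lay below control replicate 1. The transcription factors Irf1 (log2 fold change -0.26, SE 0.13) and Irf8 (-1.01, SE 0.32) did not pass the test, and for both control replicate 1 was the highest.

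**Figure D3:**
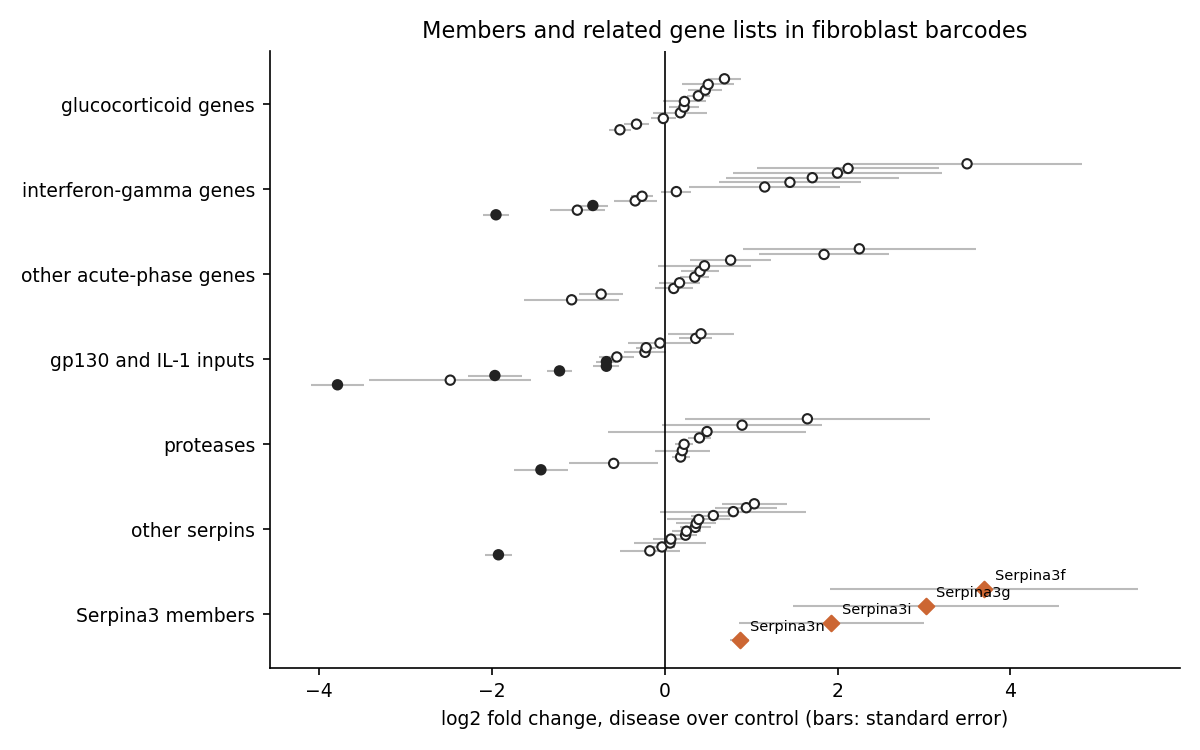
Log2 fold change of disease over control in fibroblast barcodes, with standard errors, for the 4 members that passed the filter (orange diamonds) and the tested genes of 6 related lists (circles, filled where the adjusted p of edgeR was under 0.05). Serpina3n has a narrow error at 0.87 while Serpina3f, Serpina3g and Serpina3i have wide ones, and the filled circles are all below 0.

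In endothelial cells, 5 of 10 genes of the gp130 and interleukin-1 list fell, beside 12% of all genes. Besides Cebpd they were Il6ra (log2 fold change -1.25, SE 0.26), Il1r1 (-0.66, SE 0.10), Socs3 (-1.33, SE 0.21) and Nfkbia (-1.75, SE 0.32). All 4 calls were lost without replicate 1, 2 or 5. Il6ra was also lost without replicate 3 and with equal barcodes per library, and Il1r1 in barcodes with no UMI of another class's markers. Over the alternatives the highest adjusted p was 0.187 for Il6ra, 0.626 for Il1r1, 0.0715 for Socs3 and 0.118 for Nfkbia. Relative to genes of like GC content the log2 fold change was -0.64 for Il6ra and Socs3 and -0.33 for Il1r1. Serpine2 (-1.56, SE 0.35) also fell there, a call lost under 5 of 12 alternatives, which were equal barcodes per library and leaving out replicate 1, 2, 4 or 5. Jak1 (-0.76, SE 0.11) fell too, a call lost without replicate 1 or 5 and in barcodes with no UMI of another class's markers, and its value relative to genes of like GC content was -0.34. Cebpd fell in endothelial cells by 3.59 (SE 0.19), in macrophages by 3.15 (SE 0.49) and in T cells by 3.28 (SE 0.70) on the log2 scale. Ifngr2 fell in endothelial cells by 1.98 and in macrophages by 1.91. In macrophages these were the single calls among the 12 tested genes of each of the 2 lists, a share near the 6.51% of all genes that fell there. In T cells Cebpd was 1 of 8 tested, and Jak1 (-1.35, SE 0.28) the single call among 12 of the interferon-gamma list, beside 5.2% of all genes; the Jak1 call was lost without any 1 of the 5 libraries and with equal barcodes (adjusted p up to 0.263). The Cebpd calls in macrophages were lost without replicate 1, 2 or 5 (adjusted p up to 0.093), and in T cells without replicate 2 and under DESeq2 (up to 0.11).

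Other serpins and the proteases they meet were counted in the same way. Of 14 serpins outside the cluster tested in fibroblasts, 1 fell and none rose in edgeR, beside 12.6% and 0.392% of all genes. Their median log2 fold change was 0.30, beside -0.01 over all genes. It was Serpine2, protease nexin-1, which blocks thrombin and plasminogen activators, at 431 and 395 CPM in the control libraries and 131, 107 and 99.0 CPM in the disease libraries, with a log2 fold change of -1.92 (SE 0.16, adjusted p = 0.0013). Its direction was thus opposite to that of Serpina3n in the same barcodes. Of the proteases, 9 were tested in fibroblasts and only Prtn3 passed, lower by 1.43 on the log2 scale, a call lost under 10 of 12 alternatives (adjusted p up to 0.26). Granzyme B, a target of Serpina3n, was measured in T cells at 416 and 31.7 CPM in the control libraries and 157, 766 and 584 CPM in the disease libraries, with a Gzmb log2 fold change of 1.099 (SE 0.92, adjusted p = 0.64 in edgeR). Serpinb9, its inhibitor inside cells, was at 101 and 44.9 CPM, against 132, 138 and 121 CPM (0.78, SE 0.37, adjusted p = 0.39).

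The neighbours in the serpin cluster of chromosome 12 were nearly silent. Of 16 other Serpina genes listed from the region, Serpina3c had 161 UMIs in kept barcodes, Serpina1b 134 and Serpina1e 128, and none of the others more than 11. Only Serpina3c passed the filter in fibroblasts, at 1.54 and 2.53 CPM in the control libraries and 1.31, 3.39 and 3.17 CPM in the disease libraries, and it did not pass the test (log2 fold change 0.38, SE 0.48, adjusted p = 0.64 in edgeR).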

How the data were processed

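Raw UMI counts per gene and barcode were deposited by the authors for 5 libraries, by Cell Ranger 3.1.0 according to their headers; the submitters' processing notes list Cell Ranger 3, Seurat 3 and the builds GRCh38 and mm10. The members and gene lists were chosen with earlier results of these data known, and alternatives were fixed likewise. Barcodes with at least 500 UMIs, 200 genes and at most 10% mitochondrial UMIs were kept, and 1258 doublets (3.28%) called with Scrublet in scanpy 1.11.5 (expected rate 0.8% per 1000 barcodes) were removed. A barcode took the class with most marker UMIs if it had at least 3 UMIs over 2 markers and 80% of all marker UMIs; 83.5% of kept barcodes were assigned. UMIs were summed per class and library and fitted over all genes with edgeR 4.0.16 (TMM, filterByExpr, quasi-likelihood test, Benjamini-Hochberg threshold 0.05), in R 4.3.3. CPM use plain totals. DESeq2 1.42.0, other gates and filters, and each library left out were alternatives. Standard errors were derived by dividing each log2 fold change by the root of its F value. The fit was tested on simulated data. Genes that could be named were the members, list genes and, for each member with 50 UMIs, the 5 genes of most similar level with at least 20 CPM in 3 sums; Pi16, Postn, Cxcl9, Cd4 and Cd8 splits were added after the data were seen. Col3a1, Col1a2, Pdcd1 and Ctla4 served as checks. Promoters for Serpina3h and Serpina3m were not used here. The values of 1 gene of the interferon-gamma list, and 1 of the 5 genes most similar to Serpina3g, are not reported here.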

Additional observations from a re-analysis of the deposited data

How the results depend on the processing

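No paired analysis was possible because the 2 groups share no replicate number. The log2 fold change of Serpina3n in fibroblasts stayed above 0 in all 13 alternatives, between 0.78 and 0.96 without 1 replicate, and was 0.79 after subtracting the median of 200 genes of like GC content. Without 1 replicate, Serpina3f ranged from 2.15 to 6.12 in fibroblasts, 0.60 to 5.30 in endothelial cells, 1.24 to 7.60 in macrophages and 0.0591 to 1.43 in T cells, and it was -0.29 in T cells with equal barcodes per library. Serpina3g ranged from 1.88 to 6.01 in fibroblasts, 0.77 to 4.66 in endothelial cells, 0.80 to 5.42 in macrophages, -0.0233 to 4.45 in T cells and -0.95 to 1.11 in B cells. Its values without replicate 1 were the highest. Replicate 1 is the higher of the 2 control libraries for Serpina3g in each of these classes, and replicate 2 was then the only control. Other reversals were Serpina3g in B cells without replicate 3 (0.30) and Il6ra in fibroblasts relative to genes of like GC (0.0697). Genes past the threshold numbered 1752 in fibroblasts, 1524 in endothelial cells, 498 in T cells, 735 in macrophages and 425 in B cells. Without 1 replicate these ranged from 785 to 1866, 792 to 1476, 0 to 438, 199 to 1035 and 50 to 467. The 0 was in T cells without replicate 5 by edgeR, where 889 genes had an unadjusted p under 0.05, and with all libraries DESeq2 called 515. With no UMI of another class's markers, 657 were called in endothelial cells, 59 in T cells and 401 in macrophages. With every gene with at least 1 UMI, 1008 were called in T cells, 1291 in macrophages and 901 in B cells, and with equal barcodes 209 in T cells. In fibroblasts DESeq2 called 288 higher and 1929 lower, against 53 and 1699. Serpina3n in fibroblasts over endothelial cells was 64.0 in CPM, 111 in barcodes without other markers, where the endothelial level rests on 5 UMIs in 3 libraries, and 120 in UMIs per barcode. Mean shares of barcodes with a UMI rose without thinning from 9.99% to 34.1% for Serpina3n in fibroblasts, from 8.16% to 26.0% for Serpina3g in T cells and from 2.94% to 10.8% for Serpina3f in macrophages. Among the 4 classes, depth limits T cells of replicate 2 most, with 84 barcodes, where 3 UMIs equal 7.93 CPM. B cells of replicate 1 are limited more, with 3 UMIs equal to 9.38 CPM.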
